A study of Saccharomyces cerevisiae with 5 samples.

Results

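The 10 core, variant and linker histone genes of budding yeast, Saccharomyces cerevisiae, were examined on arrays that compared RNA recovered in an immunoprecipitation (IP) of zzYra1 with total RNA. The members were every spot that GEO's platform annotation names HTA1, HTA2, HTB1, HTB2, HHT1, HHT2, HHF1, HHF2, HTZ1 or HHO1, and all 10 were found among 5583 named genes. The study holds 5 arrays of 2 channels each and 1 kind of comparison. Arrays 1 and 3 carried the IP RNA in channel 1, arrays 2, 4 and 5 carried it in channel 2, and the other channel held total RNA. Strain, growth conditions and the making of the tagged protein are not given in the sources used here, and a mock IP was not analysed here. Whether the arrays came from separate cultures is not given either, so p-values rest on array-to-array spread that may be technical.

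Yra1 is an adaptor of nuclear mRNA export that binds RNA and passes it to the export receptor Mex67. Histones package DNA into nucleosomes, and yeast cells transcribe the core histone genes mainly while DNA is replicated. Each core histone has 2 gene copies: HTA1 and HTA2 encode H2A, HTB1 and HTB2 encode H2B, HHT1 and HHT2 encode H3, and HHF1 and HHF2 encode H4. The copies stand as divergent neighbours, HTA1 with HTB1, HTA2 with HTB2, HHT1 with HHF1 and HHT2 with HHF2, with no annotated protein-coding gene between them in RefSeq assembly R64. HTZ1 encodes the H2A variant H2A.Z, and HHO1 the linker histone. Yeast histone mRNAs carry poly(A) tails, unlike most of those that animal cells make during DNA replication.

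Values below are deposited ratios on the log2 scale, each centred on the median spot of its own array. Which channel stands on top of the deposited ratio is not stated in the labels or files. "Higher" and "lower" therefore describe the deposited ratio and not enrichment or depletion in the IP, and levels of different genes were not compared. Arrays 2, 4 and 5 run the same way whichever direction was used, and so do arrays 1 and 3. The main tests were made on arrays 2, 4 and 5, and values from arrays 1 and 3 stand beside them. Most tests of gene pairs given below, and the fits over all 5 arrays, also take in arrays 1 and 3. Those mix both channel assignments, whose ratios may run in opposite directions, and use them as deposited unless stated.

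Histone genes had a value in 34 of the 50 combinations of gene and array. Array 1 measured all 10 genes, array 2 measured 9, and arrays 3, 4 and 5 measured 5 each. Over all genes the share with a value was 99.2%, 68.9%, 48.8%, 57.7% and 31.0% for arrays 1 to 5 in turn. By spot, 45 of the 80 histone spots had a value, with 1 spot per gene on arrays 1 and 2 and 2 adjacent spots per gene on arrays 3 to 5. No histone gene was measured on all 5 arrays, as 475 of 5539 genes on both platforms (8.58%) were.

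Arrays 3 and 4 measured nearly complementary sets of histone genes. Array 3 measured the H2A and H2B genes HTA1, HTA2, HTB1 and HTB2 together with HTZ1, and none of the H3, H4 or linker genes. Array 4 measured HHT1, HHF1, HHF2 and HHO1 together with HTZ1, and none of the H2A or H2B genes. Thus 8 of the 10 genes had a value on exactly 1 of these arrays, HTZ1 on both and HHT2 on neither. Over all genes of that platform, 2423 of 5539 (43.7%) had a value on exactly 1 of the pair, and the 1739 genes measured on both were 64.3% of those of array 3 and 54.4% of those of array 4. Array 5 measured HTB1, HTB2, HHT1, HHF1 and HHO1, and neither H2A gene nor the second copies HHT2 and HHF2, so it did not divide by class. HHT2 had a value only on arrays 1 and 2. Why values are missing is not stated in the labels or files.

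Repeat spots show part of the technical error on the second platform. For genes with 2 spots measured, the spots differed by a median of 0.43, 0.34 and 0.41 on arrays 3, 4 and 5 (1534, 2354 and 1425 genes), with Pearson's r across genes, which are not independent replicates, of 0.79, 0.86 and 0.92. These repeats are adjacent in spot order, so an offset that both share does not show in their difference. On arrays 1 and 2 repeat spots of a gene lie at least 387 places apart in spot order, and they agreed poorly: r was 0.12 over 1098 genes and 0.31 over 429 genes. Their median difference was 0.71 on array 1, where any 2 spots differed by a median of 0.83, and 0.61 on array 2, where any 2 spots differed by 0.67. Values on arrays 1 and 2 come from 1 spot per histone gene and carry that weak agreement. HHT2 has no other values, and neither do the differences HHT1 minus HHT2 and HHT2 minus HHF2.

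**Figure D1:**
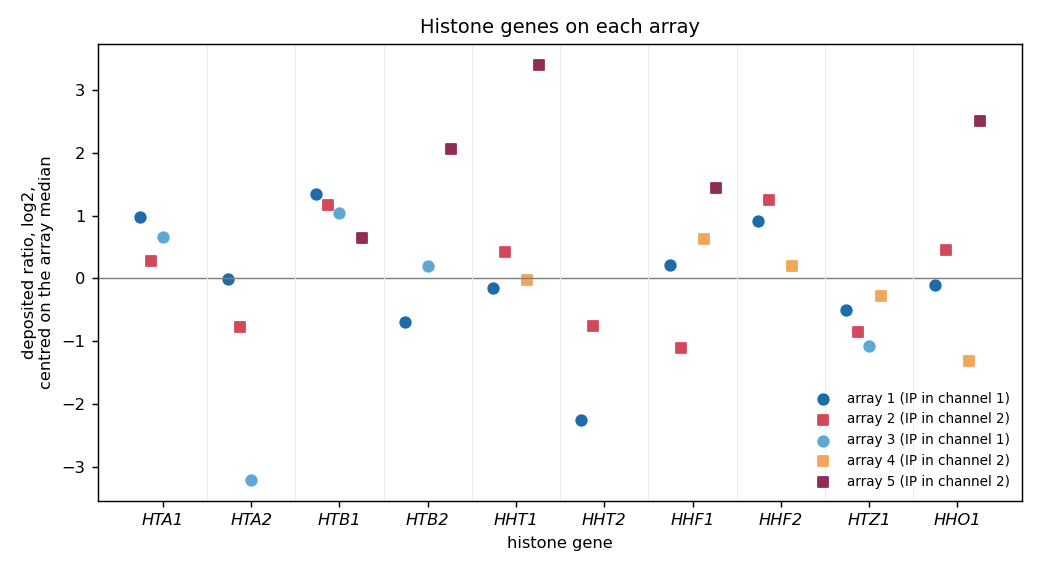
Deposited log2 ratio of each histone gene (horizontal axis), centred on the median of its array (vertical axis, log2 units). Each point is the mean of the gene's spots on 1 array, circles for arrays with IP RNA in channel 1 and squares for channel 2, and an absent point is a missing value. HTB1 lies above 0 on 4 arrays and HTZ1 below 0 on 4, while the highest points of HHT1, HHO1, HTB2 and HHF1 are all from array 5.

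HTA1 read higher than HTA2 on every array that measured both, but only on array 3 by more than repeat spots of a gene commonly differ. HTA1 had log2 ratios of 0.98, 0.27 and 0.67 on arrays 1, 2 and 3, above the median each time. HTA2 had -0.01, -0.77 and -3.22 on the same arrays, below the median spot each time. On array 1 this was marginal, as HTA2 stood at percentile 50.2 of 5541 genes, just above the median gene. On array 3 HTA2 stood at percentile 0.906 of 2705 genes and HTA1 at percentile 78.8. The 2 spots of HTA2 there read -3.04 and -3.39, and those of HTA1 read -0.11 and 1.44, so the spots of the copies did not overlap.

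Within an array, where centring has no part, HTA1 was higher than HTA2 by 0.99, 1.04 and 3.88 on arrays 1, 2 and 3. The copies thus differed in the same sense in the deposited ratio on 3 of 3 arrays, including both channel assignments. An exact two-sided sign-flip permutation test that took each of the 3 arrays as a replicate gave p = 0.25, the smallest it can give, and 0.67 adjusted over the 4 copy pairs. Arrays 1 and 2 may hold the same RNA with the dyes swapped, and with their mean as 1 replicate the exact test gave p = 0.5 over 2 replicates, again the smallest it can give. The tests of the other pairs below also take each array as a replicate. Only array 3 bears on this pair on the second platform, where the difference of 3.88 was larger than the repeat-spot difference of 90% of genes (1.27). Repeats on array 3 are adjacent, so the value of 1.27 leaves out any offset between distant spots. On arrays 1 and 2 the repeat-spot difference of 90% of genes reached up to 1.86 and 1.78, more than the differences of 0.99 and 1.04. After a running median over 81 measured spots in spot order was taken off, the differences on arrays 1, 2 and 3 were 0.52, 1.19 and 2.09. Spots without a value were skipped, so the window reached further where fewer spots were measured. The difference on array 1 was then below the median repeat-spot difference there (0.63, trend removed). The local medians taken off on array 3 were 0.45 at HTA1 and -1.34 at HTA2. With the channel 2 arrays turned in sign, array 2 would oppose arrays 1 and 3.

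The H2B genes gave no common order. HTB1 had 1.35, 1.18, 1.04 and 0.64 on arrays 1, 2, 3 and 5. It lay above the median on every array that measured it, and above the upper quartile on arrays 1, 2 and 3. HTB2 had -0.69, 0.20 and 2.07 on arrays 1, 3 and 5. HTB1 was therefore higher than HTB2 by 2.03 on array 1 and by 0.85 on array 3, and the difference on array 5 was -1.42. On arrays 3 and 5 the spots of the copies did not overlap, with 1.15 and 0.94 for HTB1 against -0.08 and 0.47 for HTB2 on array 3, and 1.10 and 0.18 against 2.00 and 2.13 on array 5. The mean difference over the 3 arrays as deposited was 0.49 ± 1.76 (SD, n = 3; exact sign-flip permutation p = 0.75, adjusted 0.75). Turning array 5 in sign would give HTB1 above HTB2 on 3 of 3 arrays, so whether the arrays differ in order depends on how the ratios run.

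**Figure D2:**
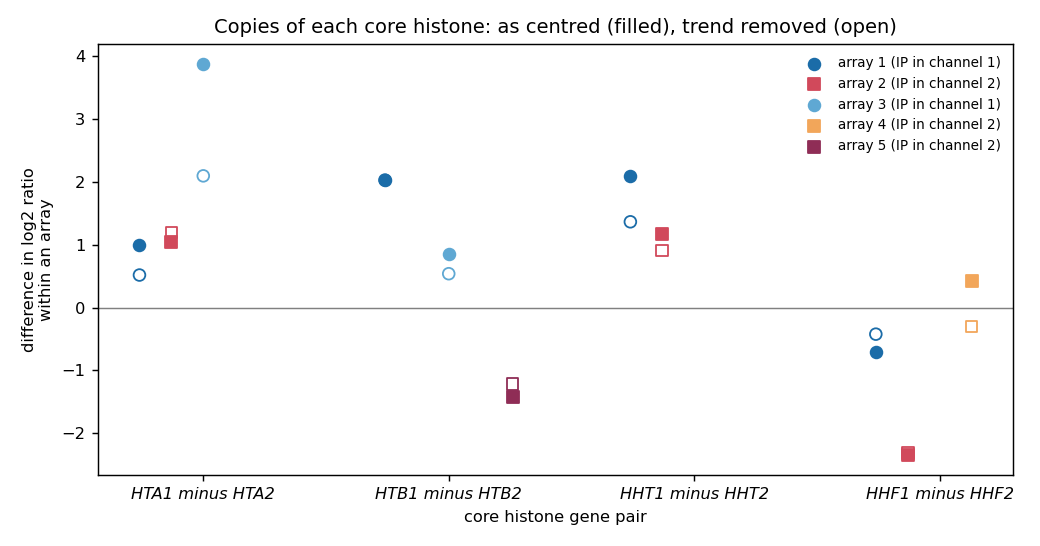
Difference in log2 ratio between the copies of each core histone (horizontal axis) within each array (vertical axis, first-named copy minus second), as centred (filled) and with the trend over spot order removed (open). Circles are arrays with IP RNA in channel 1 and squares arrays with IP RNA in channel 2. All 3 filled points for H2A lie above 0 with the largest, 3.88, on array 3, while the filled points for H2B and H4 fall on both sides. The open points for H4 all lie below 0, those of arrays 1 and 4 by less than the median repeat-spot difference of the array.

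Of the H3 genes, which encode the same protein, only HHT1 was measured on the second platform. HHT1 had -0.15, 0.42, -0.02 and 3.41 on arrays 1, 2, 4 and 5. Its high value on array 5 came from both spots (3.50 and 3.32), and the other 3 arrays lay near the median. HHT2 had -2.25 on array 1, at percentile 2.63 of 5541 genes, and -0.75 on array 2, at percentile 12.2 of 3845 genes. HHT1 was higher than HHT2 by 2.10 on array 1 and by 1.17 on array 2, each from 1 spot per gene. With 2 arrays the exact sign-flip test cannot go below p = 0.5, which is what it gave. With arrays 1 and 2 averaged as 1 replicate it could not be run.

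The H4 genes, also of identical protein, gave no common order as centred. HHF1 had 0.21, -1.10, 0.62 and 1.45 on arrays 1, 2, 4 and 5. HHF2 had 0.92, 1.25 and 0.20 on arrays 1, 2 and 4, above the median each time. The difference, HHF1 minus HHF2, was -0.71, -2.35 and 0.42 on those 3 arrays, a mean of -0.88 ± 1.39 (SD, n = 3; exact sign-flip permutation p = 0.5, adjusted 0.67). With arrays 1 and 2 averaged as 1 replicate, the mean was -0.55 over 2 replicates, 1 above and 1 below 0. On array 4 the spots of HHF2 read -0.50 and 0.91 and enclosed the 1 measured spot of HHF1 at 0.62, so no difference was detectable there. After removal of the trend over spot order, the differences on arrays 1, 2 and 4 were -0.42, -2.31 and -0.30, with HHF1 the lower copy on 3 of 3 arrays. On arrays 1 and 4 they were smaller than the median repeat-spot differences (0.63 and 0.34, trend removed), so only array 2 showed a difference beyond that.

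On the arrays with IP RNA in channel 2 alone, as the test was designed, the copy pairs had too few arrays for a test: 1 each for H2A (array 2), H2B (array 5) and H3 (array 2), and 2 for H4 (arrays 2 and 4, exact permutation p = 1). Which sequences were spotted on the slides is not stated in the labels or files. How far the near-identical copies share signal by cross-hybridisation was not tested, and values of the copies are uncertain for that reason.

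Divergent neighbours were compared in the same way. HTA1 minus HTB1 was -0.37, -0.91 and -0.38 on arrays 1, 2 and 3, a mean of -0.55 ± 0.31 (SD, n = 3; exact sign-flip permutation p = 0.25, adjusted 0.67 over 4 pairs). HTA1 was the lower of the 2 on 3 of 3 arrays, though on array 3 their spots overlapped. On arrays 1 and 3 the differences were below the median repeat-spot differences (0.71 and 0.43). With arrays 1 and 2 averaged as 1 replicate, HTA1 minus HTB1 was -0.51 over 2 replicates (exact sign-flip permutation p = 0.5, the smallest that 2 allow). HHT2 minus HHF2 was -3.17 on array 1 and -2.0 on array 2. HTA2 minus HTB2 was 0.68 on array 1 and -3.41 on array 3, and HHT1 minus HHF1 was -0.36, 1.52, -0.65 and 1.96 on arrays 1, 2, 4 and 5. These last 2 pairs fell on both sides of 0 as centred. As centred, HHT1 minus HHF1 had a mean of 0.94 ± 1.40 over arrays 2, 4 and 5 (SD, n = 3, exact sign-flip permutation p = 0.5). With arrays 1, 2, 4 and 5 each a replicate, its mean was 0.62 ± 1.31 (SD, n = 4, exact sign-flip permutation p = 0.5, adjusted 0.67). With arrays 1 and 2 averaged as 1 replicate, its mean was 0.63 over 3 replicates (exact sign-flip permutation p = 0.75). Once the trend over spot order was removed, HHT1 minus HHF1 was 0.06, 1.23, 0.16 and 1.12, above 0 on 4 of 4 arrays. On arrays 1 and 4 it was smaller than the median repeat-spot differences (0.63 and 0.34, trend removed). Over arrays 2, 4 and 5 the mean of HHT1 minus HHF1 was then 0.83 (exact sign-flip permutation p = 0.25, the smallest that 3 arrays allow). HTA2 minus HTB2 still had both signs, at 0.66 and -2.15.

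The variant gene lay below the median wherever it was measured, and the linker gene on both sides. HTZ1 had -0.50, -0.85, -1.08 and -0.28 on arrays 1 to 4, below the median on 4 of 4 arrays. Its spots read -0.36 and -1.81 on array 3 and -0.28 and -0.29 on array 4. With the trend over spot order removed, HTZ1 was at 0.90 on array 1 and stayed below 0 on arrays 2, 3 and 4 (-0.40, -1.25 and -0.03). HHO1 had -0.10, 0.45, -1.31 and 2.51 on arrays 1, 2, 4 and 5, the last from spots at 1.89 and 3.14. HHO1 thus spanned 2 arrays above and 2 below the median, and on array 4 it stood at percentile 6.99. With the trend removed HHO1 had 0.10, 0.26, -1.10 and 0.15, a narrower range than HTZ1 then had. HTZ1 has no value on array 5, where HHO1 was highest as centred.

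As deposited, 6 of the 10 genes lay on the same side of the median on every array that measured them: HTA1, HTB1 and HHF2 above, and HTA2, HHT2 and HTZ1 below. Among all 5248 genes with a value on at least 2 arrays this held for 26.7%. The share falls with the number of arrays, so each gene was set beside the genes measured on the same arrays. The share on the same side throughout, above or below, was 11.2% of 232 genes on the arrays of HTB1. It was 13.1% of 703 genes for HTZ1, 23.0% of 422 for HTA1 and HTA2, 25.3% of 735 for HHF2 and 49.0% of 765 for HHT2. For the histone genes that fell on both sides it was 14.4% of 257 (HHT1, HHF1 and HHO1) and 34.1% of 85 (HTB2). With the channel 2 arrays turned in sign, 0 of the 10 genes lay on the same side throughout, against 26.3% of all genes. The 6 genes were all measured with both channel assignments, so turning had to split each of them. Only the remaining histone genes could have qualified, so the count of 0 is not a separate result. On arrays 3 to 5 alone, where 6 histone genes had at least 2 values, 4 did so (HTB1, HTB2 and HHF1 above, HTZ1 below), against 46.4% of 2426 genes. With the trend over spot order removed it was 6 of 10 (HTA1, HTB1, HHT1 and HHF2 above, HTA2 and HHT2 below), against 27.7% of all genes.

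Only 3 of the 10 genes could enter the test over arrays 2, 4 and 5, and none passed it. With limma and Benjamini-Hochberg adjustment over 735 genes, 0 genes had an adjusted p under 0.05 (0% called; 42 at an unadjusted p under 0.05, and 0 called by limma's variant with trend and robust, with 14 unadjusted). The mean of HHT1 was 1.27 ± 1.87 (SD, n = 3; adjusted p = 0.71, limma), with a 95% interval of -0.75 to 3.28. HHO1 had 0.55 ± 1.91 (adjusted p = 0.83, limma) with an interval of -1.49 to 2.59, and HHF1 0.32 ± 1.30 (adjusted p = 0.89, limma) with an interval of -1.44 to 2.09. Each was above the median on 2 of 3 arrays. All 3 means leaned on array 5: on arrays 2 and 4 alone they were 0.20, -0.43 and -0.24, and on arrays 4 and 5 alone, without the first platform, 1.69, 0.60 and 1.04. With the trend over spot order removed they were 0.37, -0.23 and -0.46.

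Among genes with at least 2 of the 3 arrays, 3 more histone genes entered, and 0 of 2981 genes passed (0% called, limma; 133 at an unadjusted p under 0.05). HTB1 had 0.91 ± 0.38 (SD, n = 2; adjusted p = 0.88, limma), HHF2 0.72 ± 0.74 and HTZ1 -0.57 ± 0.40, the last 2 also with adjusted p = 0.88. Over all 5 arrays as deposited, with arrays 1 and 2 averaged as 1 replicate and genes in at least 2 replicates, HTB1 had 0.98 ± 0.31 (SD, n = 3; unadjusted p = 0.056, adjusted p = 0.90, limma), above the median in 3 of 3 replicates. In the same fit HTZ1 had -0.68 ± 0.40 (n = 3; adjusted p = 0.90, limma) and HTA2 -1.80 ± 2.00 (n = 2; adjusted p = 0.90, limma), and 0 of 4483 genes passed (0% called, 170 at an unadjusted p under 0.05). With the channel 2 arrays turned, HTB1 had 0.16 and HTZ1 -0.21, and again 0 of 4483 genes passed (104 at an unadjusted p under 0.05).

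The median of the histone genes lay near the array median on 4 of the 5 arrays, with members on both sides of it. The median of the measured members was -0.06, 0.27, 0.20, -0.02 and 2.07 on arrays 1 to 5. Members above the median numbered 4 of 10, 5 of 9, 3 of 5, 2 of 5 and 5 of 5, while between 47.6% and 50.2% of all genes lay above it. Members outside the middle 50% of genes, as centred, numbered 5 of 10, 7 of 9, 4 of 5, 2 of 5 and 4 of 5. On array 5 the ratios of all genes were also the most spread, with quartiles at -1.74 and 1.30, and the histone values ran from 0.64 (HTB1) to 3.41 (HHT1). With the trend over spot order removed, the family median on array 5 was 0.16, and 4 of the 5 histone genes, all but HTB2, lay in the middle 50% of genes. The local medians taken off there were 2.80 at HHT1, 2.36 at HHO1, 1.96 at HHF1, 0.69 at HTB2 and 0.49 at HTB1. Taking off a high local median lowers a value by construction, here by the most for the H3, H4 and linker genes. Whether the high values of array 5 come from spot position was not tested.

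**Figure D3:**
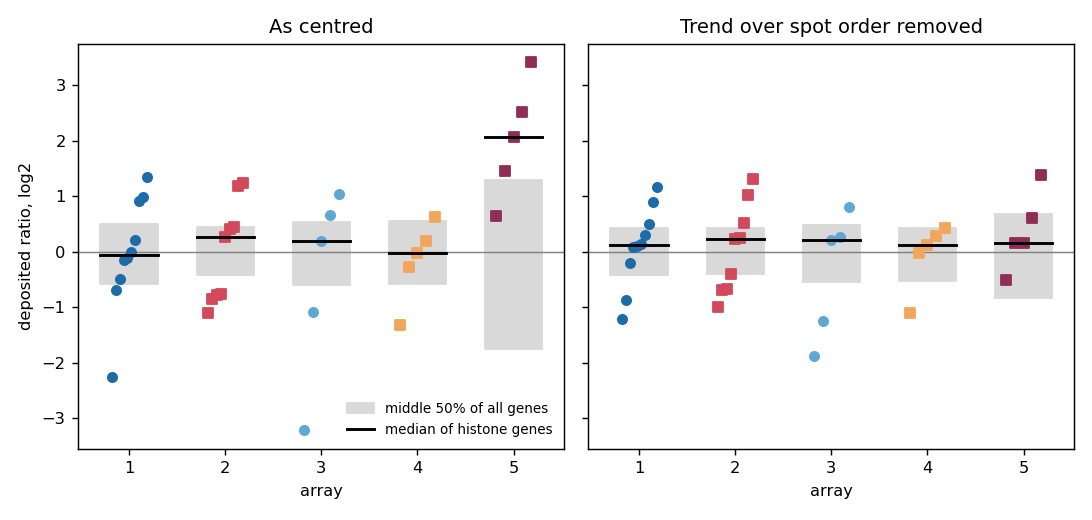
Log2 ratios of the measured histone genes (points) on each of the 5 arrays (horizontal axis), as centred (left) and with a running median over 81 measured spots removed (right). Grey bars span the middle 50% of all genes of the array and black lines mark the median of the histone genes, which on array 5 is 2.07 on the left and 0.16 on the right.

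The genes with the profile nearest to the family's median profile were PIS1, DML1 and TPH3. Their root mean square differences from it over the 5 arrays were 0.29, 0.30 and 0.36, where the median over the 475 genes compared was 1.57. PIS1, which encodes phosphatidylinositol synthase, had 0.41, 0.47, 0.25, 0.33 and 1.90 on arrays 1 to 5. The likeness rests on values near the median on 4 arrays, arrays 1 and 2 among them, and a high value on array 5. The family's median profile was taken over different histone genes on different arrays, and no histone gene was measured on all 5 arrays. Likeness to that profile is therefore not likeness to the profile of any histone gene.

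Of 55 listed genes that act on histones or on histone genes, all had a value on some array, 8 (14.5%) had values on arrays 2, 4 and 5, and none passed the test. Over all genes on both platforms, 735 of 5539 (13.3%) had values on those arrays. Of 12 listed regulators of histone transcription, 2 had values on arrays 2, 4 and 5: SWI4, the DNA-binding subunit of the cell cycle factor SBF, at 0.94 ± 1.31 (SD, n = 3), and SWI6, its partner, at 0.92 ± 0.87. Of 11 histone chaperones and importers, the nuclear importer KAP123 was tested, at 0.01 ± 0.55. Of 11 genes of H2A.Z deposition, 2 were tested, SWC3 at 0.34 ± 0.90 and SWC4 at 0.10 ± 2.59, both subunits of the complex that places H2A.Z. Of 18 histone-modifying enzymes, 3 were tested. HOS1, a deacetylase, was the highest at 1.76 ± 1.56 and above the median on 3 of 3 arrays, as 17.4% of the 735 genes were (adjusted p = 0.71, limma), and HAT2, of a histone acetyltransferase complex, the lowest at -0.52 ± 3.18. None of the 3 genes listed for centromeric H3 was tested. List medians were 0.93, 0.01, 0.22 and 0.18, beside 0.08 over all 735 genes, and each rests on 1 to 3 genes.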

How the data were processed

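RNA co-purified with zzYra1 was compared with total RNA on 5 two-channel arrays of 2 platforms. The deposited values are log10 ratios per spot; direction, processing and intensities are not given in the sources used here. Base 10 was settled from the values: between 29.4% (array 3) and 93.4% (array 2) of 1000 values per array were simple fractions (both terms at most 65535, product under 100000000) in base 10, against at most 3.2% in base 2 or e and at most 7.9% after jitter. Array medians were -1.39, 1.34, -0.853, 0.302 and -0.141, so scale is known, centring was set here and direction stays unknown. Values were put on the log2 scale and centred on each array's median spot. A few spots split over 2 lines were joined. Genes were named through GEO's platform annotation, where 6695 of 7680 and 11138 of 12800 spots carried 1 gene. Any spot naming several was left out. Symbols were updated by gene identifier in RefSeq assembly R64, which held 5578 of 5583 and 5534 of 5539. Spots of a gene were averaged.

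Genes measured on arrays 2, 4 and 5 were tested against 0 with limma 3.58.1 (R 4.3.3), Benjamini-Hochberg, threshold 0.05, checked on simulated data. In fits over all 5 arrays, arrays 1 and 2, a possible dye swap, were averaged as 1 replicate, or 1 stood alone where the other had no value (HTB2). Copies were compared within arrays by exact two-sided sign-flip permutation tests. Python 3.11.15, numpy 2.4.6, pandas 2.3.3, statsmodels 0.14.6 and matplotlib 3.10.9 were used. Members and lists were chosen with earlier results of these data known. Named genes are all members, the tested genes with the highest and the lowest mean in each related list, and the 3 genes nearest the median profile. Alternatives changed direction, replicate unit, filter, scaling, centring, spot averaging, the variance model, the spot-order trend and the arrays used. The number of arrays limits the precision.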

Additional observations from a re-analysis of the deposited data

Results flagged for a closer look

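Of 6 sets of 4 or 5 arrays examined (5 histone genes and the family median), 2 held an array far from the others by Dixon's test, which flags about 1 in 20 by chance. HHT1 stood at 3.41 on array 5, with its other 3 arrays between -0.15 and 0.42. The histone family median stood at 2.07 on array 5, with the other 4 arrays between -0.06 and 0.27. Both come from the same array, whose genes had an SD of 2.25 where the other arrays had 0.81 to 1.11. With the trend over spot order removed, the values on array 5 were 0.61 for HHT1 and 0.16 for the family median.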

How the results depend on the processing

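No paired analysis was possible because the series holds 1 group. Of the genes tested over arrays 2, 4 and 5, 0 were called under each alternative run but the one without array 5, which called 4 of 2185 genes on 2 arrays: DSK2, RPL21B, SSA2 and SUE1, no histone among them. Mean ratios that changed sign were those of HHT1 (-1.22), HHO1 (-0.49) and HHF1 (-0.47) with the channel 2 arrays turned, HHF1 with arrays scaled to equal spread (-0.13), and HHF1 (-0.46) and HHO1 (-0.23) with the trend over spot order removed. Leaving out 1 array at a time gave 0.20 to 1.91 for HHT1, -0.43 to 1.48 for HHO1 and -0.24 to 1.04 for HHF1. HTB1 minus HTB2 (-1.42 on array 5) was 0.46 over all arrays as deposited, 0.49 with each array a replicate and 1.01 with channel 2 turned. HHF1 minus HHF2 (-0.96 over arrays 2 and 4) was 0.20 turned and -2.35 to 0.42 leaving out 1 array. HHT1 minus HHF1 (0.94) was -0.75 turned. Turning also moved HHT1 minus HHT2 to 0.46, HHT2 minus HHF2 to -0.58 and HTA1 minus HTB1 to -0.054; the last (-0.91 on array 2) was -0.51 over all arrays as deposited, -0.55 with each array a replicate and -0.50 with the trend removed. The family median was 0.12 (array 1), 0.13 (array 4) and 0.16 (array 5) with the trend removed, 0.033 on array 1 with mean centring and 0.89 on array 5 with equal spread. Genes on the same side of the median on every array numbered 6 of 10 as deposited, 0 turned, 4 of 6 on arrays 3 to 5 and 6 of 10 with the trend removed. Turning had to split each of the 6 genes of the deposited setting. The fits over all 5 arrays with no missing value held no histone gene. Those fits limited to genes in at least 2 replicates, and the other settings for genes on the same side of the median, were chosen after seeing the data. The cause of these changes was not tested.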
